A study of Mus musculus with 9 samples.

Results

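The transcripts of 7 cytokine chains were followed in single cells of the mouse gut wall: Il12b, Il12a, Il23a, Il27, Ebi3, Il6 and Osm. They were taken by symbol from the gene list of the series and are 7 of its 31053 genes. All 7 were present, and each was described in the same cell classes of all 9 libraries. The cells were CD11b+ lamina propria cells of male C57BL/6 mice aged 7 to 8 weeks, sequenced from the 3' end with a unique molecular identifier (UMI) on each captured transcript. The library labelled Nlrc4 deficient came from colon of mice given 2.5% dextran sodium sulfate (DSS) for 7 days and then plain water, and 1 library came from wildtype colon with the same DSS treatment. Another library came from wildtype colon of mice that drank pan-antibiotics for a week or longer, namely ampicillin at 1 g/L, vancomycin at 0.5 g/L, neomycin at 1 g/L and metronidazole at 1 g/L. The replicated groups had 2 libraries each: germ-free (GF) wildtype colon, wildtype small intestine of mice labelled normal, and wildtype colon of specific pathogen free (SPF) mice. The DSS and antibiotic-treated mice were SPF mice according to the labels, and the housing of the small intestine mice was not stated. The number of animals behind each library was not given in the labels, so p-values measure only the spread between libraries.

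These cytokines are built from shared parts. IL-12 is a pair of the Il12a and Il12b chains, IL-23 pairs Il23a with the same Il12b chain, IL-27 pairs the Il27 chain with Ebi3, and IL-35 pairs Ebi3 with Il12a, so a cell needs both transcripts of a pair to make the cytokine by itself. IL-6 and oncostatin M are single chains that signal through the common receptor subunit Il6st. In the gut, IL-12 is known for driving interferon-gamma in T cells, IL-23 for sustaining interleukin-17 and interleukin-22 in lymphocytes, and IL-6 and oncostatin M for acting on lymphocytes, epithelium and stroma during inflammation.

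Of 37123 barcodes, 31759 were kept with at least 200 genes and at most 15% mitochondrial UMIs. Kept cells per library numbered between 1450 and 6698, and total UMIs per library between 13243317 and 64453601. A gate on 114 marker genes, which held none of the 7 cytokine genes, placed 28847 cells in 16 classes, left 1482 without a marker and set aside 1430 that met 2 gates. The sort was for CD11b+ cells, yet B cells (4624), plasma cells (2860) and T cells (2557) were abundant beside monocytes (4109), type 2 dendritic cells (3868), macrophages (3136), neutrophils (1652), eosinophils (1515), type 1 dendritic cells (882) and mature dendritic cells (583), the Ccr7-expressing form known to migrate to lymph nodes. Every class had its own markers among the detected genes, but the share of gated cells in an unsupervised cluster of the same name was 0% for endothelial cells, 20.2% for plasma cells, 54.2% for macrophages and 65.4% for mature dendritic cells, and the epithelial gate had none of its own markers among its top 10 genes. Nlrc4 itself had 1254 UMIs in the library labelled Nlrc4 deficient and 304 UMIs in the DSS library, so this 3' count did not check the label. Libraries shared 145 barcodes, and the 313 kept cells that carried one held 12 of the 4927 Il12b UMIs and 70 of the 15930 Il6 UMIs. Levels below are counts per 1000000 UMIs of a class (CPM), intervals cover counting error only, and levels were not compared between genes. A class was ranked in a library only where it had at least 20 cells there.

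The 250 bases before the start of Il6, Il12b and Ebi3 are shown because several of the results turn on these genes and the RefSeq set (GRCm38.p6) held a promoter for each. A promoter was matched for 4 of the 7 members. Capitals mark the matches to the motifs searched on both strands. One was the kappa B motif of NF-kappa B factors. For AP-1 the letters were TGANTCA. For C/EBP factors the letters were TTGCNNAA. The cyclic AMP response element (CRE) was searched as TGACGTCA. The TATA box was searched as TATAAA.
Il6 (chr5:30012864-30013113, plus strand): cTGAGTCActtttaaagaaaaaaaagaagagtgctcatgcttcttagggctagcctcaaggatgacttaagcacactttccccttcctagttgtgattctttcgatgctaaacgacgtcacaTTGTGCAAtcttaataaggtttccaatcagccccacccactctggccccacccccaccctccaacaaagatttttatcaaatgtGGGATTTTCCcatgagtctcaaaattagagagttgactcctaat
Il12b (chr11:44399813-44400062, plus strand): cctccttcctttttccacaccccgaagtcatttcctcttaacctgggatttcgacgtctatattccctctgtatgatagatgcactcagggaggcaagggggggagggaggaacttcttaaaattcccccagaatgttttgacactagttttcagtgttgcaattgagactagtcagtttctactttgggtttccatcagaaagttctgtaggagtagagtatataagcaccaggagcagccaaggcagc
Ebi3 (chr17:55952373-55952622, plus strand): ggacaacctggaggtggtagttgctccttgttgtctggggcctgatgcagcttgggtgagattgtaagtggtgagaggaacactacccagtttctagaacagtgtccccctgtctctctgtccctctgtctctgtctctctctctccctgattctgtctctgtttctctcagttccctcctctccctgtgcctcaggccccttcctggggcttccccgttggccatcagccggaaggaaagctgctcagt
In Il6 the kappa B match began 44 bases before the start, the C/EBP match, read on the other strand, 128 bases before it and the AP-1 match 249 bases before it, and none overlapped another. None of these letters was found in the Il12b or Ebi3 windows, nor in either Il12a window. Of 32851 promoters of 300 bases, 1.63% held the kappa B letters, 1.79% the CRE letters, 7.81% the AP-1 letters, 10.8% the C/EBP letters and 13.6% the TATA letters. A match is a description of the letters and not a binding site.

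**Figure D1:**
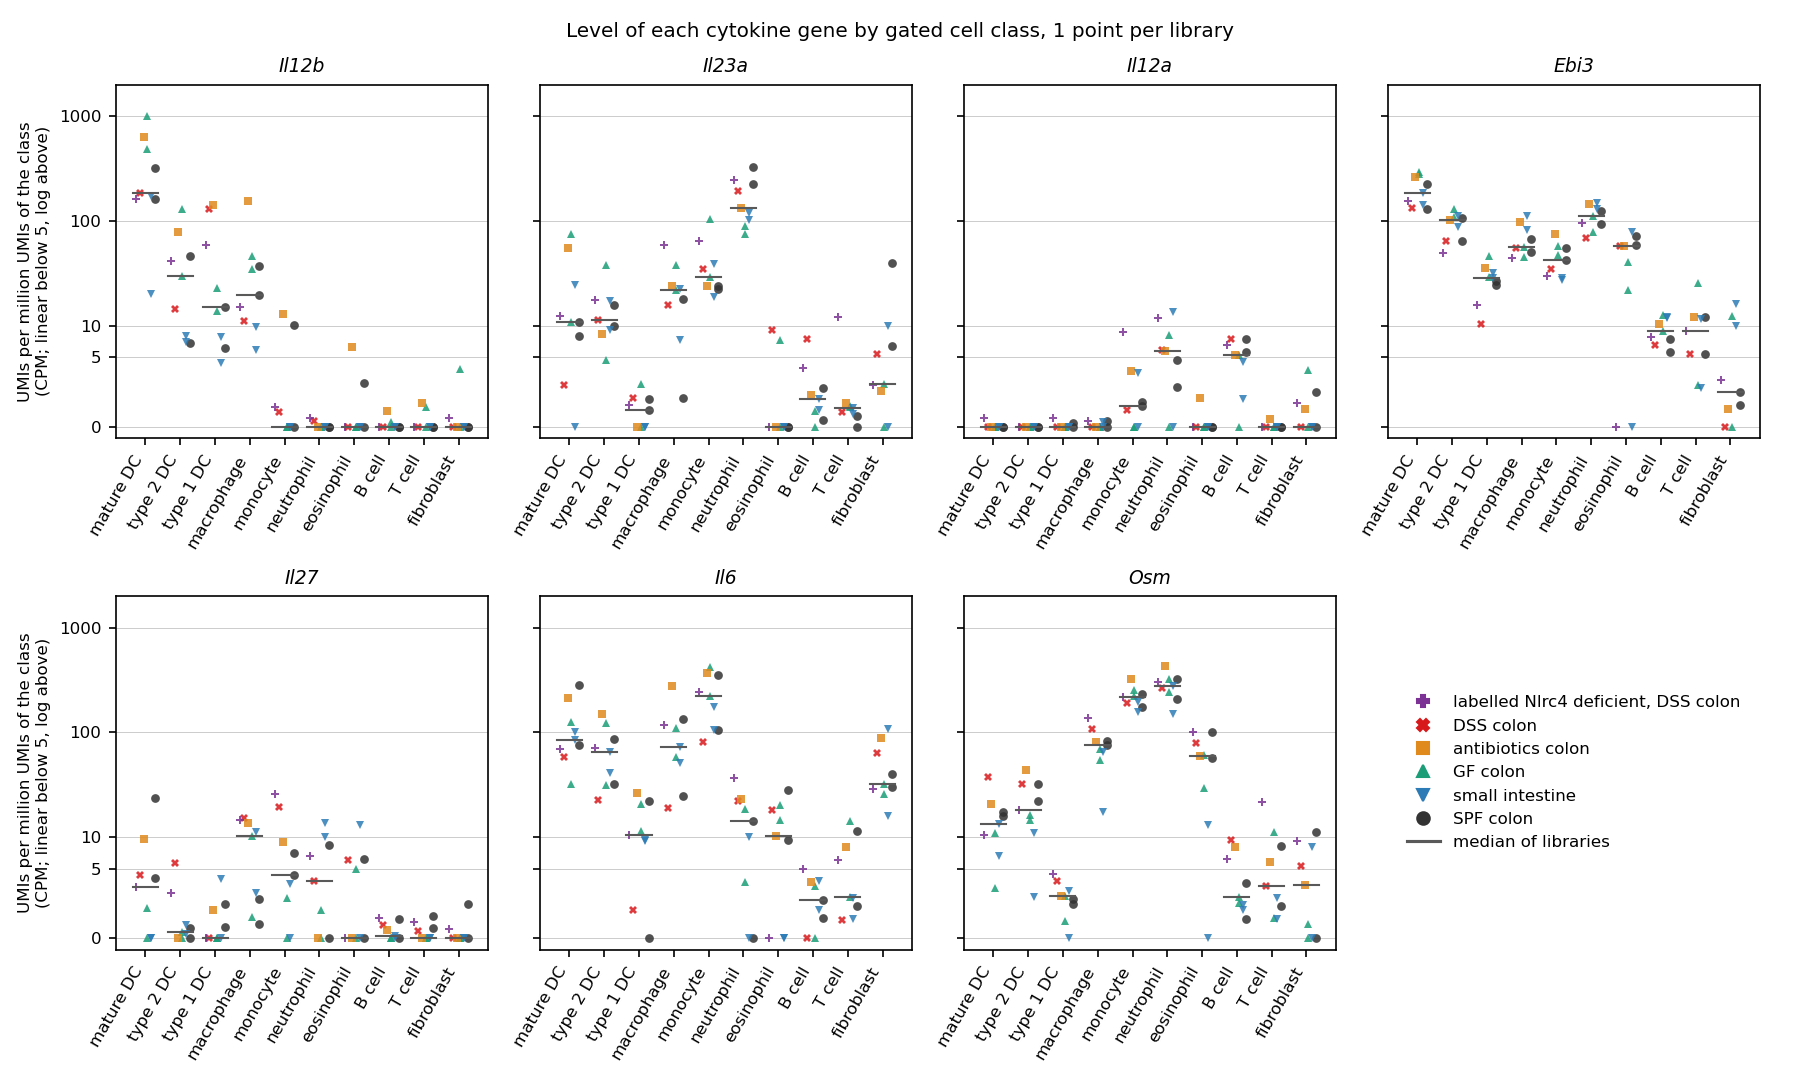
Level of each of the 7 cytokine genes (CPM of the class, log axis above 5 and linear below) in 10 gated cell classes, with 1 point per library, colour and shape by condition, and a bar at the median of the 9 libraries. Among classes with at least 20 cells in a library, Il12b stood highest in mature dendritic cells in 9 of 9 libraries, Il23a in neutrophils in 8 of 9, and Il6 in monocytes in 6 of 9.

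Across the 10 classes tested against the other gated cells, 60 pairs of a cytokine gene and a class passed the filter on low counts and 48 were called, 20 of them higher in the class and 28 lower (edgeR quasi-likelihood test with library as a block, Benjamini-Hochberg adjusted p below 0.05 over all genes). DESeq2 called 49 of the 60. These comparisons call much of the transcriptome: the share of all tested genes called was 49.7% for mature dendritic cells, 57.4% for type 2 and 56.8% for type 1 dendritic cells, 53.1% for macrophages, 56.7% for monocytes, 60.6% for neutrophils, 52.4% for eosinophils, 70.4% for B cells, 61.0% for T cells and 66.4% for fibroblasts. The cytokine genes called were 4 of 6 in mature dendritic cells, 5 of 6 in type 2 and 4 of 6 in type 1 dendritic cells, 4 of 6 in macrophages, 6 of 7 in monocytes, 6 of 7 in neutrophils, 3 of 5 in eosinophils, 7 of 7 in B cells, 5 of 5 in T cells and 4 of 5 in fibroblasts. Read against those shares, the number of calls does not set the cytokine genes apart, and the sizes and directions carry the description, with a limit for Il12a given below.

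Il12b (ENSMUSG00000004296, GRCm38 chromosome 11, 44400063 to 44414033, plus strand), the chain that IL-12 and IL-23 share, was found chiefly in dendritic cells. In mature dendritic cells its level was 19.9 CPM in the lowest library, 184 CPM at the median and 990.1 CPM in the highest, and this class had the highest level in 9 of 9 libraries. Type 2 dendritic cells followed with 6.75, 29.8 and 129 CPM, macrophages with 5.83, 19.7 and 155 CPM, and type 1 dendritic cells with 4.55, 14.9 and 141 CPM. The ranges of these 3 classes overlapped one another, and they also overlapped that of mature dendritic cells. In monocytes the median was 0 CPM and the highest library had 13.04 CPM. A UMI of Il12b was found in 25.6% of mature dendritic cells (median 10622 UMIs per cell), against a background of 0.235% in T cells (median 4739 UMIs), and in 12.5% after every cell was thinned to 1000 UMIs. Mature dendritic cells made 39.2% of all Il12b UMIs and type 2 dendritic cells 33.3%.

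The Il12b signal was carried by few cells. All 4927 UMIs came from 504 cells, the 10% of them with the most held 51.3%, and the highest single cell held 126. In the second SPF library 1 mature dendritic cell held 60 of the 75 Il12b UMIs of its class, and the level without it was 33.2 CPM instead of 162 CPM. Single cells therefore set several of the values by condition given later.

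Il12b had a log2 fold change of 4.79 ± 0.35 (SE) in mature dendritic cells against the other gated cells (edgeR adjusted p = 6.57e-09). It was also higher in type 2 dendritic cells, by 1.21 ± 0.29 (adjusted p = 0.00365). In macrophages (0.70 ± 0.28, adjusted p = 0.0518) and type 1 dendritic cells (0.74 ± 0.55, adjusted p = 0.27) it did not pass. Set directly against type 2 dendritic cells, mature dendritic cells had more Il12b, by 3.17 ± 0.36 on the log2 scale (adjusted p = 1.38e-06; 47.1% of all genes were called in that comparison). In neutrophils, monocytes, eosinophils, B cells, T cells and fibroblasts Il12b was lower, with log2 fold changes between -7.56 and -2.99. The lower level in monocytes was no longer called when cells were assigned by named cluster (-0.88, adjusted p = 0.0557), and neither was monocyte against macrophage (-3.36 ± 0.37 as gated, -0.66 by named cluster with adjusted p = 0.492).

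Il23a (ENSMUSG00000025383, chromosome 10, 128296139 to 128298752, minus strand), the chain particular to IL-23, had another distribution. Neutrophils held 74.6 CPM in the lowest library, 132 CPM at the median and 325 CPM in the highest, and led in 8 of 9 libraries. Monocytes had 18.9, 29.0 and 104 CPM, macrophages 2.08, 21.8 and 59.1 CPM, and type 2 dendritic cells 4.81, 11.3 and 38.0 CPM. The monocyte, macrophage and type 2 dendritic cell ranges overlapped, while only the second GF library had more Il23a in monocytes than in neutrophils. There, 1 monocyte held 51 of the 71 UMIs of its class, and the monocyte level without it was 29.6 CPM, below the 88.9 CPM of neutrophils. A UMI of Il23a was seen in 20.9% of neutrophils (median 2590 UMIs per cell) and 13.2% of monocytes (median 8295 UMIs), against 0.821% of T cells, and in 12.8% and 3.72% of the neutrophils and monocytes thinned to 1000 UMIs. Monocytes gave 38.9% of all Il23a UMIs and neutrophils 22.5%, but without the library labelled Nlrc4 deficient the order turned, with 16.4% from monocytes and 29.0% from neutrophils.

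The log2 fold change of Il23a was 4.23 ± 0.27 in neutrophils (adjusted p = 4.57e-12) and 1.76 ± 0.22 in monocytes (adjusted p = 1.96e-06). Neutrophils exceeded monocytes by 2.61 ± 0.32 (adjusted p = 3.87e-06; 59.3% of all genes were called). Among dendritic cells Il23a was lower in the type 1 class (-3.73 ± 0.33, adjusted p = 2.65e-07), and was 0.55 ± 0.38 in type 2 and 0.76 ± 0.58 in mature dendritic cells, neither of which passed. Fibroblasts were lower by -1.90 ± 0.59 (adjusted p = 0.0107), a call that was lost without the library labelled Nlrc4 deficient (-1.25, adjusted p = 0.0507).

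Il12a (ENSMUSG00000027776, chromosome 3, 68690644 to 68698547, plus strand), the chain particular to IL-12, was scarce. The 456 UMIs of the series lay in 326 cells. Monocytes held 220, of which 201 were in the library labelled Nlrc4 deficient, B cells held 104 and neutrophils 41. Its level in neutrophils was 0 CPM in the lowest library, 5.74 CPM at the median and 13.5 CPM in the highest, and in B cells it was 0, 5.23 and 7.46 CPM. In monocytes it was 0, 1.52 and 8.68 CPM, and the ranges of these 3 classes overlapped. Type 2 dendritic cells had no Il12a UMI in 3868 cells, and 3 counts of that total, the limit set by a count of 0, correspond to a share of up to 0.0776% of cells with a UMI, not of cells that express the gene, and mature dendritic cells had 1 UMI. Only 1.88% of neutrophils, 1.97% of B cells (median 3272.5 UMIs per cell) and 3.24% of monocytes had a UMI, against 0.0391% of T cells. Plasmacytoid dendritic cells, 73 in all, had the highest share (6.85%) and pooled level (10.3 CPM), but from 6 UMIs in 5 cells. Neutrophils led in 4 of 9 libraries, B cells in 3, and fibroblasts and plasmacytoid dendritic cells in 1 each. Without the library labelled Nlrc4 deficient the monocyte share was 0.892%.

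Il12a passed the low-count filter in 3 classes and was higher in each. A gene this scarce can pass the filter through the class in which it is high. The direction of these 3 calls is therefore not a result of its own. The log2 fold change was 2.68 ± 0.36 in neutrophils (adjusted p = 1.38e-06), 2.56 ± 0.42 in B cells (adjusted p = 7.29e-05) and 1.55 ± 0.43 in monocytes (adjusted p = 0.0053). Without the library labelled Nlrc4 deficient, the neutrophil and monocyte values were too low to be tested. In the other classes, among them all 3 dendritic cell classes, it was too low to be tested.

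Ebi3 (ENSMUSG00000003206, chromosome 17, 55952640 to 55957022, plus strand), the shared chain of IL-27 and IL-35, was again highest in mature dendritic cells in 9 of 9 libraries, with 131, 183 and 295 CPM as lowest, median and highest. Neutrophils had 67.8, 112 and 148 CPM and type 2 dendritic cells 48.9, 102 and 130.3 CPM, which overlapped closely. Macrophages (44.4, 56.0 and 110.2 CPM) and monocytes (27.1, 42.0 and 75.2 CPM) came next, and type 1 dendritic cells had 10.3, 28.5 and 46.5 CPM. Eosinophils had a median of 57.4 CPM but 0 CPM in the library labelled Nlrc4 deficient and in the second small intestine library, where 20 and 23 eosinophils were gated. The share of cells with an Ebi3 UMI was 52.1% in mature dendritic cells and 47.8% in type 2 dendritic cells (median 11384.5 UMIs per cell), against 5.68% of eosinophils, whose median depth of 1011 UMIs was far lower. Thinned to 1000 UMIs, the shares were 13.2% in mature and 8.26% in type 2 dendritic cells, against 5.06% in eosinophils.

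Ebi3 was higher by 2.74 ± 0.19 on the log2 scale in mature dendritic cells (adjusted p = 2.77e-09), by 1.89 ± 0.15 in type 2 dendritic cells (adjusted p = 5.27e-07), by 1.73 ± 0.19 in neutrophils (adjusted p = 5.32e-08) and by 0.92 ± 0.17 in macrophages (adjusted p = 0.000626). It was lower in type 1 dendritic cells (-0.61 ± 0.20, adjusted p = 0.0201). That call lay near the threshold. It was lost without the second GF, the second SPF, the second small intestine or the Nlrc4-labelled library, with adjusted p between 0.05001 and 0.0621. The log2 fold change then stayed between -0.55 and -0.53. Mature dendritic cells exceeded type 2 dendritic cells by 1.21 ± 0.12 (adjusted p = 2.38e-07).

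Il27 (ENSMUSG00000044701, chromosome 7, 126589010 to 126594941, minus strand), the chain particular to IL-27, was a low transcript of monocytes and macrophages. In macrophages it had 1.04, 10.2 and 15.1 CPM as lowest, median and highest, and in monocytes 0, 4.56 and 25.6 CPM, so that the classes overlapped. No class led throughout: macrophages did in 3 of 9 libraries, monocytes and neutrophils in 2 each, and mature dendritic cells and eosinophils in 1 each. Monocytes held 739 of the 1123 UMIs of the series, or 65.8%, of which 593 lay in the library labelled Nlrc4 deficient, and without that library they held 146 of 415, or 35.2%. A UMI was found in 11.0% of monocytes and 2.997% of macrophages, against 0.352% of T cells, and in 1.61% and 0.565% of the monocytes and macrophages after thinning. Without the library labelled Nlrc4 deficient, 6.08% of monocytes had a UMI. The log2 fold change was 2.73 ± 0.30 in monocytes (adjusted p = 4.44e-07) and 2.10 ± 0.47 in macrophages (adjusted p = 0.00231), while type 2 dendritic cells were lower by -1.44 ± 0.38 (adjusted p = 0.00647). Il27 was thus higher in monocytes and macrophages, whereas its partner Ebi3 had its highest level in mature dendritic cells.

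Il6 (ENSMUSG00000025746, chromosome 5, 30013114 to 30019981, plus strand) was a monocyte transcript with a broad spread into other cells. Monocytes had 80.8 CPM in the lowest library, 222 CPM at the median and 417 CPM in the highest. They led in 6 of 9 libraries among classes with at least 20 cells. The gate of mast cells and basophils, 63 cells in all, led in 1 library, labelled Nlrc4 deficient, and was too small to be ranked elsewhere. Pooled over libraries and split by protease as described below, its cells had 511, 3239 and 5048 CPM, above every monocyte value. Mature dendritic cells had 32.4, 84.0 and 285 CPM, macrophages 19.0, 72.0 and 274 CPM, and type 2 dendritic cells 22.6, 64.2 and 149.8 CPM, and these ranges overlapped. Fibroblasts, the stromal cells known as a source of IL-6 in the gut, had 16.1, 32.4 and 108 CPM. A UMI was found in 41.4% of monocytes and 22.8% of type 2 dendritic cells, against 1.96% of T cells, and in 14.2% and 5.51% of the monocytes and type 2 dendritic cells after thinning. Monocytes gave 48.8% of all Il6 UMIs and type 2 dendritic cells 20.7%, but the library labelled Nlrc4 deficient held 5645 of the 7780 monocyte UMIs. Without it the order turned, with 26.4% from monocytes and 32.1% from type 2 dendritic cells, and 27.7% of monocytes had a UMI.

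Il6 was higher by 2.89 ± 0.20 in monocytes (adjusted p = 1.85e-09), 1.46 ± 0.33 in mature dendritic cells (adjusted p = 0.00128), 1.01 ± 0.29 in macrophages (adjusted p = 0.0112) and 0.94 ± 0.30 in type 2 dendritic cells (adjusted p = 0.0171). It was lower in type 1 dendritic cells by -2.17 ± 0.32 (adjusted p = 4.67e-05) and in neutrophils by -1.45 ± 0.35 (adjusted p = 0.00117). Neutrophils and monocytes differed by -3.12 ± 0.40 (adjusted p = 5.78e-06), the opposite direction to Il23a in the same pair of classes. In fibroblasts the value was -0.63 ± 0.39 and did not pass.

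Osm (ENSMUSG00000058755, chromosome 11, 4236420 to 4241026, plus strand), which encodes oncostatin M, was shared by neutrophils and monocytes. Neutrophils had 148 CPM in the lowest library, 279 CPM at the median and 431 CPM in the highest and led in 6 of 9 libraries, and monocytes had 156, 217 and 321 CPM and led in 2. The gate of mast cells and basophils led in 1, the library labelled Nlrc4 deficient, and was too small to be ranked elsewhere. Macrophages had 17.5, 75.8 and 136 CPM, eosinophils 0, 59.7 and 102 CPM and type 2 dendritic cells 2.98, 18.3 and 43.9 CPM. A UMI was seen in 60.9% of monocytes and 39.9% of neutrophils, against 1.41% of B cells (median 3272.5 UMIs per cell). After thinning to equal depth the order turned, with 20.2% of neutrophils and 17.3% of monocytes. Monocytes held 59.3% of all Osm UMIs.

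The log2 fold change of Osm was 3.63 ± 0.25 in monocytes (adjusted p = 1.91e-09), 3.53 ± 0.27 in neutrophils (adjusted p = 1.31e-10) and 1.56 ± 0.27 in macrophages (adjusted p = 0.000382). Neutrophils exceeded monocytes by 0.72 ± 0.15 (adjusted p = 0.000462), and monocytes exceeded macrophages by 1.48 ± 0.18 (adjusted p = 7.79e-06; 30.1% of all genes were called). All 3 tested dendritic cell classes were lower, by -3.92 ± 0.22 in type 1, -1.20 ± 0.32 in mature and -0.69 ± 0.25 in type 2 cells. The type 2 call was lost without the DSS library (-0.57, adjusted p = 0.108) and without the second GF, the second small intestine, the first SPF or the second SPF library (adjusted p between 0.0501 and 0.0909). Fitted without the library block, the Osm calls of macrophages (1.12, adjusted p = 0.0866), mature (-1.25, adjusted p = 0.0527) and type 2 dendritic cells (-0.91, adjusted p = 0.15) were lost. So were Il27 (1.58, adjusted p = 0.0854) and Il6 (0.97, adjusted p = 0.14) in macrophages, Ebi3 in type 1 dendritic cells (-0.57, adjusted p = 0.0628), and Il12b (1.25, adjusted p = 0.122), Il27 (-1.28, adjusted p = 0.181) and Il6 (0.69, adjusted p = 0.263) in type 2 dendritic cells, each in the same direction.

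**Figure D2:**
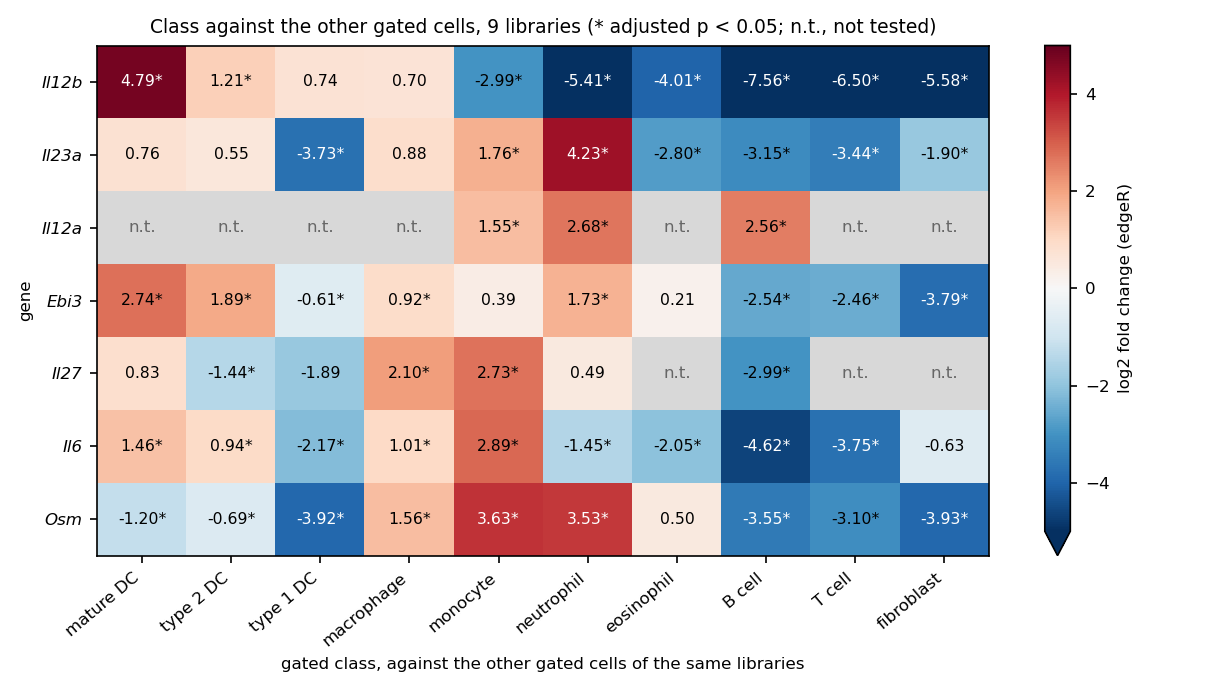
Log2 fold change (edgeR) of each cytokine gene in a gated class against the other gated cells of the same 9 libraries, with colour and printed value for size and direction, an asterisk for an adjusted p below 0.05 and n.t. for pairs too low to test. Il12b reached 4.79 in mature dendritic cells and Il23a 4.23 in neutrophils.

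The chains that form 1 cytokine were then looked for in the same cells, since a UMI of both chains in 1 cell is the nearest these data come to a source of the whole cytokine. Of 346 neutrophils with an Il23a UMI, 1 also had an Il12b UMI (0.289%, exact 95% interval 0.0073% to 1.60%), against 0.0766% of neutrophils without Il23a. In mature dendritic cells 13 of 27 cells with Il23a had Il12b (48.1%, interval 28.7% to 68.1%), against 24.5% of those without. In type 2 dendritic cells the shares were 13.3% with Il23a and 3.47% without, and in macrophages 8.28% and 1.71%. In monocytes 8 of 541 cells with Il23a had Il12b (1.48%), against 0.308% of the others. The class with the highest Il23a level therefore had 1 cell with both IL-23 chains, while most of the 67 cells with both were type 2 dendritic cells (28), mature dendritic cells (13) and macrophages (13). Neutrophils with Il23a were shallow, with a median of 2906 UMIs. Cells with an Il23a UMI were deeper than those without, with a median of 15126 UMIs against 11244 among type 2 dendritic cells and of 8924 against 4476 among macrophages, and the part of depth in these shares was not tested.

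For IL-12, none of the 149 mature dendritic cells with Il12b had an Il12a UMI, and none of 155 type 2 dendritic cells with Il12b had one. The exact 95% intervals of these shares reached 2.45% and 2.35%, and they cover cells with a UMI of a scarce transcript, not cells that express it. Across type 1 dendritic cells 1 of 52 cells with Il12b had Il12a. For IL-27, Ebi3 was found in 27.0% of monocytes with an Il27 UMI, against 19.8% of those without. In macrophages the shares were 35.1% (interval 25.5% to 45.6%) and 24.9% (23.3% to 26.4%), with overlapping intervals. Cells with Il27 were deeper, with a median of 10085.5 UMIs against 8050 in monocytes and 8332.5 against 4503.5 in macrophages. The part of depth in these shares was not tested. In type 2 dendritic cells the shares were 45.0% and 47.8%, and their intervals overlapped. For IL-35, Il12a was found in 4.97% of monocytes with Ebi3 (interval 3.61% to 6.66%), against 2.79% of those without. The median depth of these cells was 9724 and 7844 UMIs, and 117 of the 133 monocytes with Il12a were in the library labelled Nlrc4 deficient. Without it the shares were 1.85% (0.746% to 3.77%) and 0.636% (0.291% to 1.205%), with overlapping intervals. Osm was found in 70.9% of monocytes with Il6, against 53.9% of the others, whose median depth was 7105 UMIs instead of 9812.

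**Figure D3:**
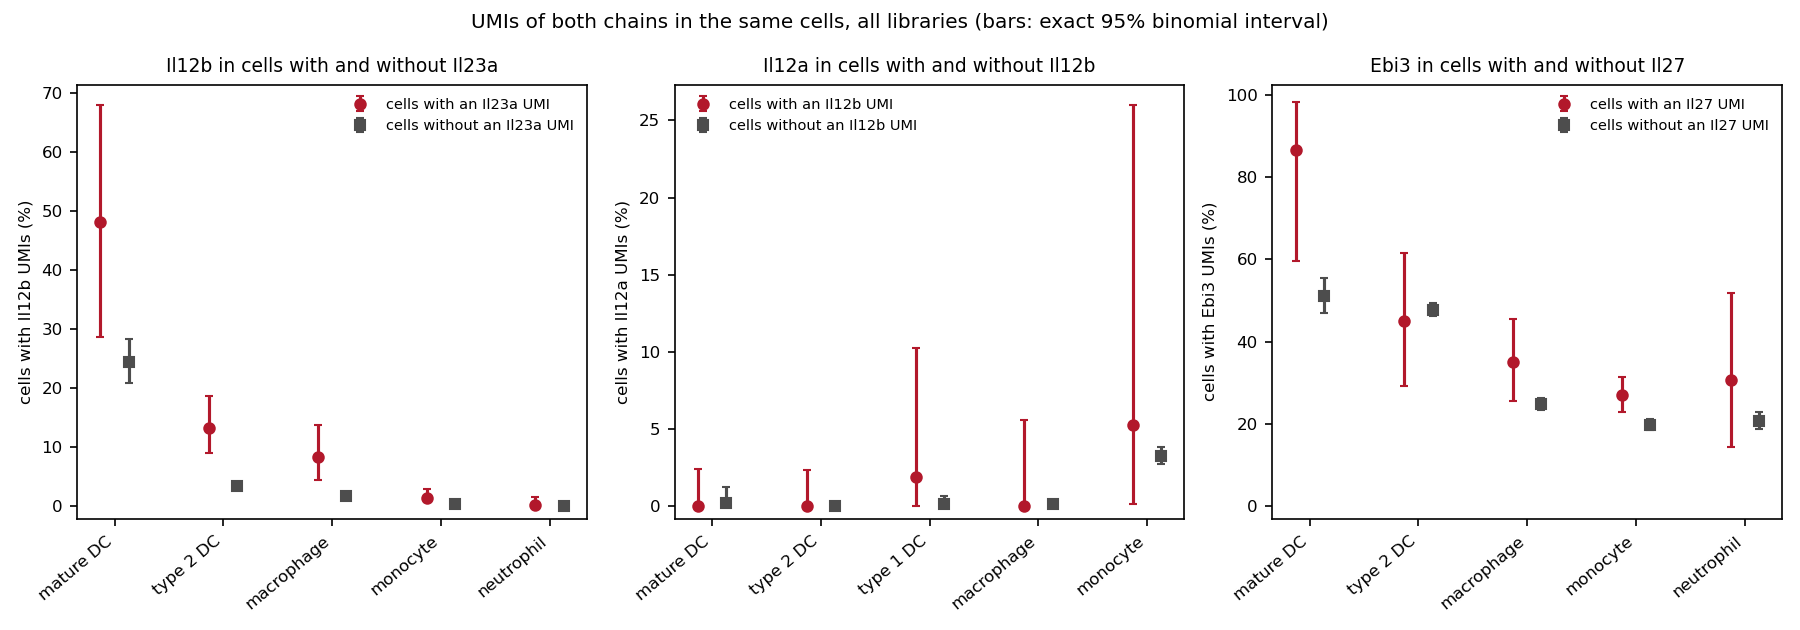
Share of cells (percent, exact 95% binomial interval) with a UMI of the second chain among cells with the first chain (circles, left of each pair) and without it (squares, right), by gated class over all libraries. Il12b was present in 48.1% of mature dendritic cells with Il23a and 24.5% of those without, and in 0.289% of neutrophils with Il23a.

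Across 90 sums of a library and a class with at least 50 cells, the genes whose level followed each chain most closely were taken among 11685 genes by Pearson correlation, as a description with no test. For Il12b they were Arhgap22 (r = 0.82), Tspan33 (0.81) and Ccl17 (0.81), the last a chemokine of dendritic cells. For Il23a they were Sirpb1b (0.89), Clec5a (0.87) and Gpr84 (0.85), for Osm Clec4e, Clec4d and Igsf6 (0.92, 0.92 and 0.91), and for Ebi3 Bcl2a1a, Il1r2 and Cd300a (0.90, 0.88 and 0.87). Il6 was nearest to Cflar, St3gal1 and Mmp19 (0.88, 0.85 and 0.84). The lower transcripts had looser neighbours, with r = 0.73 for Rdh12 beside Il12a and 0.70 for Fhod1 beside Il27. Among the members, Il23a and Osm had r = 0.74, Il12b and Ebi3 0.56, and Il12b and Il12a -0.31. Sums of 1 library share its depth, so these points are not independent.

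The receptor genes of these cytokines were counted in the same class comparisons. In fibroblasts 4 of 7 tested receptor genes were higher and 3 lower (median log2 fold change 1.08, against -0.12 over all genes). The higher ones were Osmr, which binds oncostatin M (6.56 ± 0.43), the shared subunit Il6st (1.94 ± 0.16), Lifr (1.91 ± 0.18) and Il6ra (1.08 ± 0.24). In T cells 3 of 6 were higher and 2 lower, led by Il27ra (3.94 ± 0.22), Il12rb1, the receptor chain that IL-12 and IL-23 share (3.62 ± 0.21), and Il12rb2 (3.07 ± 0.40). Monocytes had 2 of 7 higher, Lifr (2.21 ± 0.16) and Il6ra (1.90 ± 0.16), and 4 lower. Genes known to be driven by these cytokines were higher in T cells for 4 of 5, namely Il17a (7.42 ± 0.60), Ifng (3.58 ± 0.44), Il17f (3.33 ± 0.50) and Tbx21 (3.07 ± 0.32). Of the other ligands of the IL-6 family, Lif (2.55 ± 0.30) and Clcf1 (2.05 ± 0.12) were higher in monocytes, 2 of 3 tested. For scale, the share of all tested genes called was 66.4% in fibroblasts, 61.0% in T cells and 56.7% in monocytes. The counts alone therefore do not set these lists apart.

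Transcription factors known to control these cytokine genes were split by class. In mature dendritic cells 5 of 8 were higher and 1 lower, among them Batf3 (2.01 ± 0.19), Rel (1.78 ± 0.14) and Irf8 (1.32 ± 0.21). In neutrophils 4 were higher and 2 lower, led by Cebpb (3.40 ± 0.22) and Nfkbiz (2.58 ± 0.19). In macrophages and monocytes 5 of 8 were higher and 1 lower, and in type 2 dendritic cells 5 were higher and 2 lower. In T cells and fibroblasts none was higher and 7 were lower. These counts stand beside 49.7% of all genes called in mature dendritic cells, 53.1% in macrophages, 56.7% in monocytes, 57.4% in type 2 dendritic cells, 60.6% in neutrophils, 61.0% in T cells and 66.4% in fibroblasts. Of 9 genes known to respond to tissue dissociation, 5 were higher in neutrophils, 5 in macrophages, 5 in fibroblasts and 3 in monocytes, whereas none was higher and 5 were lower in mature dendritic cells, and their part in the cytokine levels was not tested.

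Within a class, the levels differed between clusters made without the cytokine genes. Type 2 dendritic cells of colon lay mostly in a cluster led by Cd209a and Clec10a, and those of small intestine mostly in a cluster led by Plet1 and Itgae. Il12b was 53.6 CPM in the Cd209a cluster and 4.86 CPM in the Plet1 cluster over all libraries, which sets mostly colon against mostly small intestine cells. Il12b was higher in the first in each of the 3 libraries with enough cells of both, by a smaller gap. The values were 9.71 against 3.27 CPM in SPF replicate 1, and 19.3 against 5.56 and 15.1 against 2.50 CPM in the small intestine libraries. Osm behaved likewise, with 23.3 and 2.51 CPM and 3 of 3 libraries, whereas Ebi3, Il23a and Il6 were higher in the Plet1 cluster in 3 of 3. Among monocytes, Il6 was 275 CPM in a cluster led by Saa3 and Inhba and 110.3 CPM in a cluster led by Ly6i and Ccr2, and was higher in the first in 4 of the 5 libraries that had both. The exception was the DSS library, with 73.9 CPM against 87.7 CPM. Among mature dendritic cells, Il12b was 418 CPM in the main cluster and 90.4 CPM in the cells that clustered with type 2 dendritic cells, and was higher in the first in 4 of the 5 libraries that had both. The exception was the first small intestine library, with 0 CPM against 47.6 CPM. These are descriptions of cells grouped by their own expression, and no test was made.

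**Figure D4:**
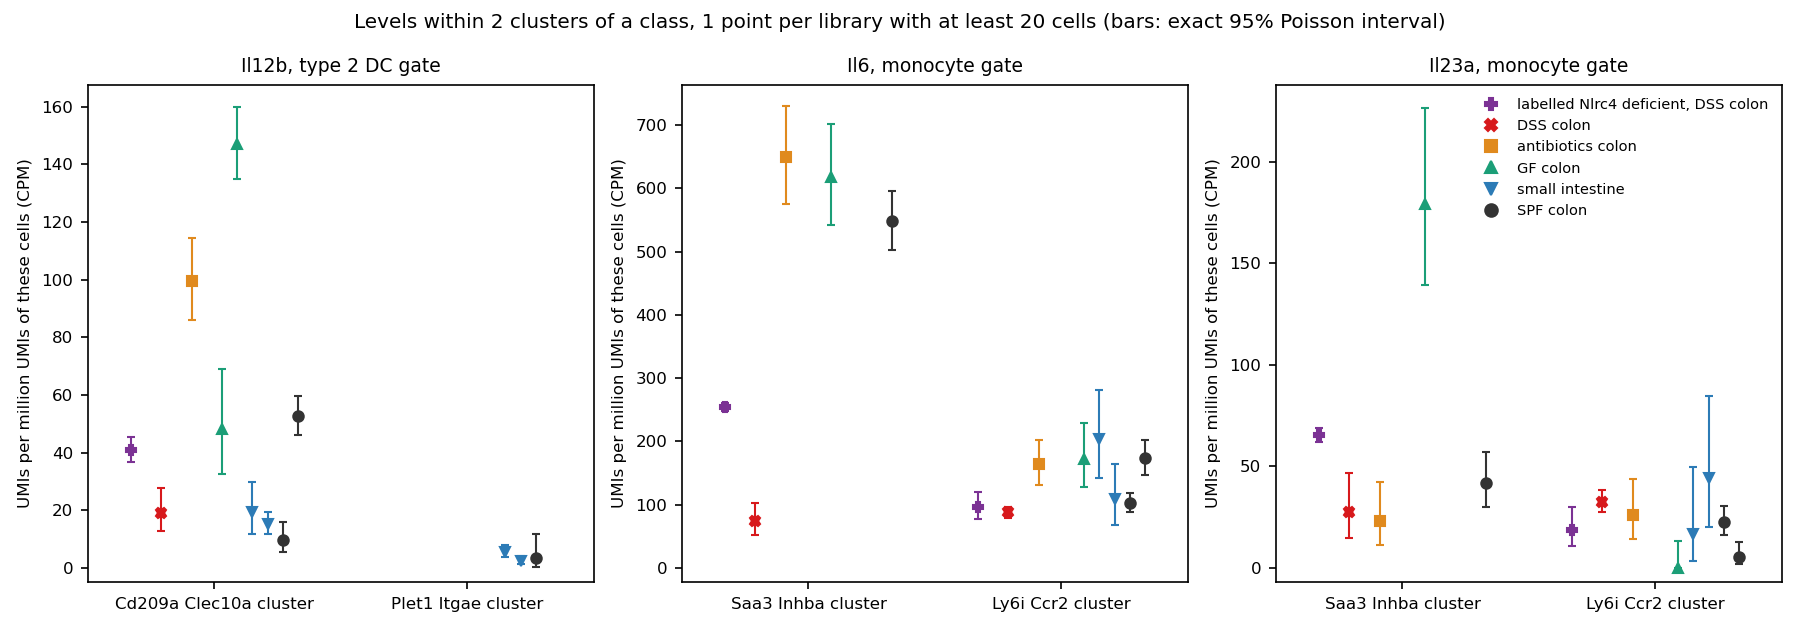
Level (CPM of the cells, exact 95% Poisson interval) of Il12b in 2 clusters of type 2 dendritic cells and of Il6 and Il23a in 2 clusters of monocytes, with 1 point for each library that had at least 20 cells in the cluster. Il6 in the Saa3 Inhba cluster was 254 CPM in the library labelled Nlrc4 deficient and 73.9 CPM in the DSS library.

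Germ-free and SPF colon were compared for the effect of having no microbiota, with the 6 libraries of the replicated groups in 1 fit per class. None of the 36 tested pairs of a cytokine gene with a class or with all kept cells was called in GF against SPF colon by edgeR (5 had an unadjusted p below 0.05), and none by DESeq2 (4 below 0.05). Of all genes 0.0% were called in every class tested. In simulated counts for mature dendritic cells in this comparison, edgeR recovered 18.4% of 2-fold and 74.2% of 4-fold changes. The absence of calls therefore does not show the absence of such changes. In mature dendritic cells Il12b was 990.1 and 487 CPM in the GF libraries, against 321 and 162 CPM in the SPF libraries, without overlap (log2 fold change 1.79 ± 0.65, unadjusted p = 0.019, adjusted p = 0.433). With no filter on low counts, so that every gene with a UMI entered the fit, this pair was called (1.83, adjusted p = 5.65e-06). The fold change was nearly the same, why the p differed was not tested, and the call is not taken as support. Single cells held 60 of 75 and 44 of 81 of the SPF UMIs, and without the highest cell of each library the values were 751 and 448 CPM in GF, against 153 and 33.2 CPM in SPF. Ebi3 in the same cells was 295 and 282 CPM in GF, against 131 and 227 CPM in SPF (0.80 ± 0.32, adjusted p = 0.499).

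The Il23a values of neutrophils and monocytes lay on opposite sides of SPF colon, neither of them called. In neutrophils it was 74.6 and 88.9 CPM in GF, from 8 and 44 UMIs, against 223 and 325 CPM in SPF (log2 fold change -1.62 ± 0.44, unadjusted p = 0.00295, adjusted p = 0.898). In monocytes it was 29.0 and 104 CPM in GF, against 22.6 and 23.8 CPM in SPF (1.90 ± 0.47, unadjusted p = 0.00201, adjusted p = 0.9996). The GF monocyte values came from 22 and 80 cells, and the first from 3 UMIs. Without the cell that held 51 UMIs the second GF value was 29.6 CPM, so the monocyte difference rested mainly on 1 cell. It was called with no filter on low counts (1.82, adjusted p = 0.0329), which is likewise not taken as support.

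In small intestine against SPF colon none of the 36 pairs was called by edgeR (4 with an unadjusted p below 0.05) or by DESeq2 (5 below 0.05). The share of all genes called was 0.0% over all kept cells and in macrophages, monocytes, neutrophils, B cells and T cells, 0.181% in mature, 0.116% in type 2 and 0.0486% in type 1 dendritic cells and 0.0333% in fibroblasts. Il12b in macrophages was 5.83 and 9.69 CPM in small intestine, against 37.1 and 19.7 CPM in SPF colon (-1.88 ± 0.39, unadjusted p = 0.000905, adjusted p = 0.327). With no filter it was called (-1.85, adjusted p = 0.000438), which is likewise not taken as support. Without the highest cell of each library the values were 2.94 and 7.42 CPM, against 18.0 and 3.18 CPM, which overlapped. Osm in type 2 dendritic cells was 2.98 and 10.95 CPM in small intestine, against 32.2 and 22.2 CPM in SPF colon (-1.78 ± 0.52, unadjusted p = 0.00831, adjusted p = 0.256). Over all kept cells Osm was 3.39 and 16.7 CPM, against 43.6 and 42.3 CPM (-1.86 ± 0.69, unadjusted p = 0.0368, adjusted p = 0.691). This value mixes cell numbers with the level within classes. Monocytes numbered 38 of 3654 and 46 of 5470 kept cells, against 363 of 2615 and 221 of 2431 in SPF colon. Their Osm was 156 and 193 CPM, against 175 and 231 CPM. In macrophages it was 17.5 and 64.2 CPM, against 81.8 and 75.8 CPM. The part of each in the value over all kept cells was not tested. Il23a in neutrophils was 101 and 119 CPM, from 15 and 12 UMIs, against 223 and 325 CPM (-1.37 ± 0.45, unadjusted p = 0.00972, adjusted p = 0.9999).

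**Figure D5:**
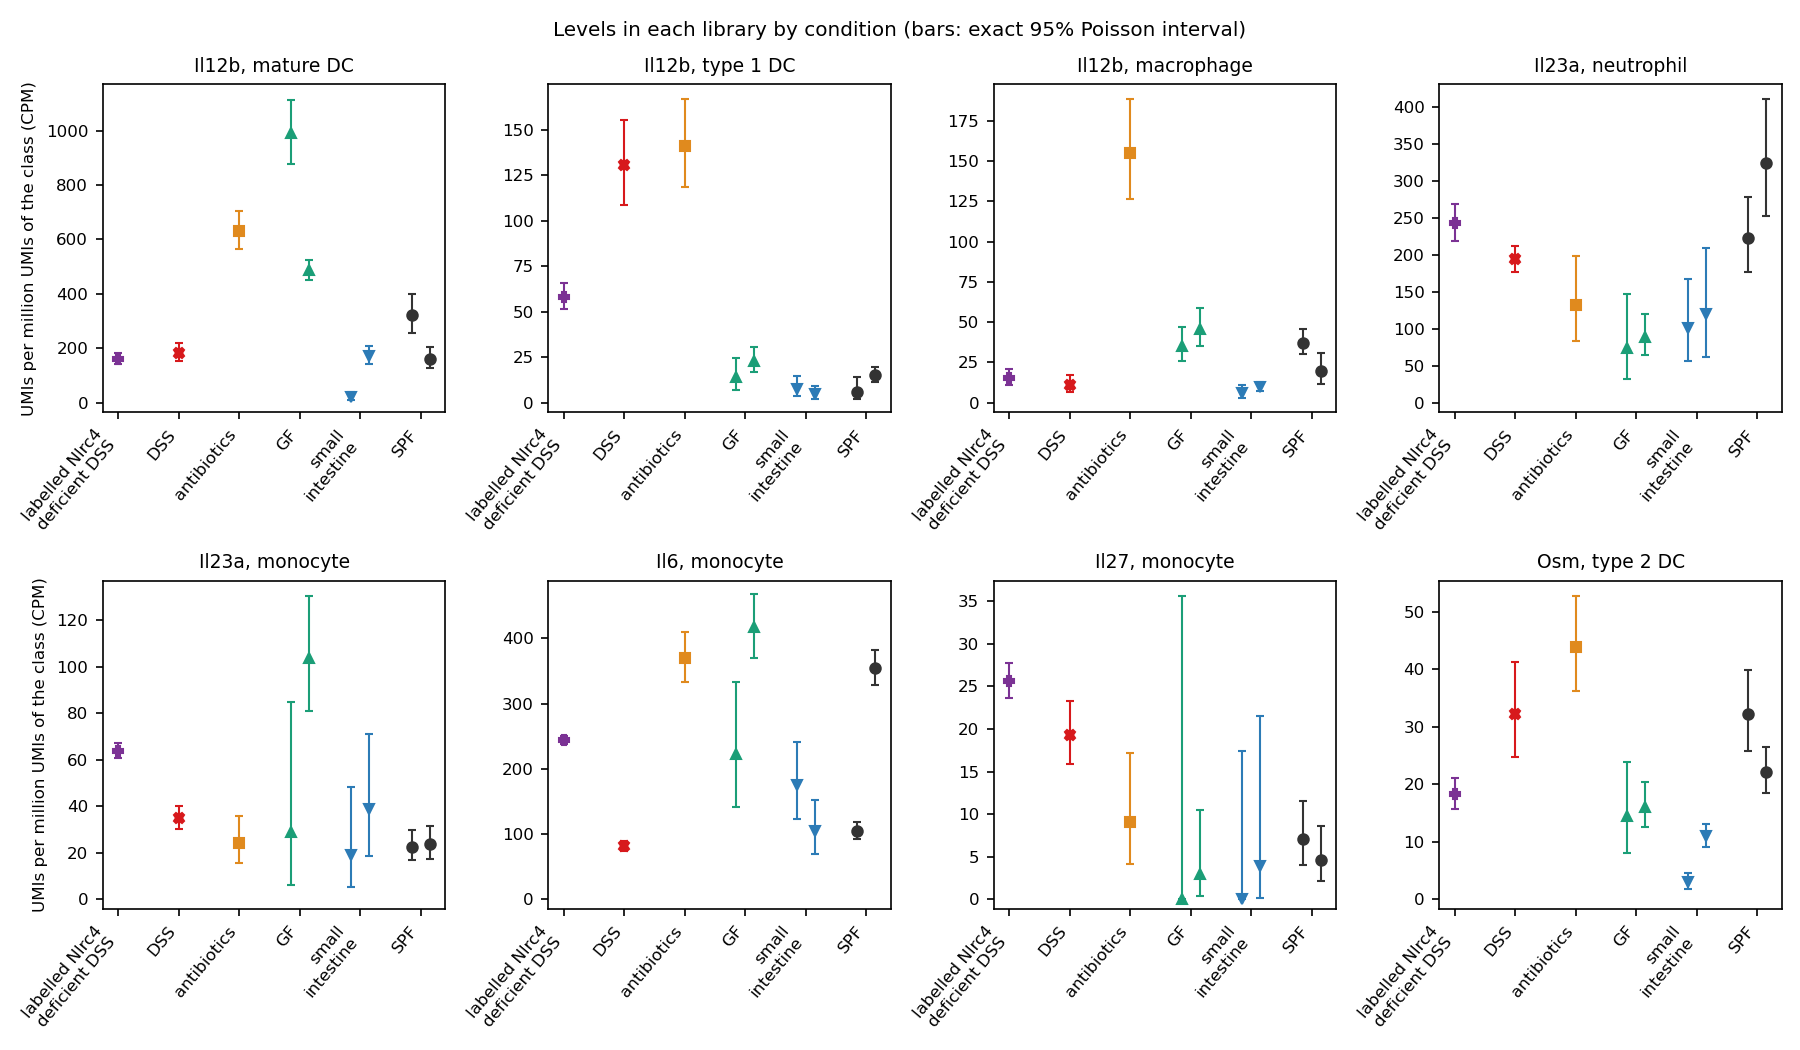
Level (CPM of the class, exact 95% Poisson interval) in each of the 9 libraries by condition, for 8 pairs of a gene and a class. The antibiotics library had 155 CPM of Il12b in gated macrophages, but 2.57 CPM in those of the cluster led by Pf4 and Cd163. The GF libraries had 74.6 and 88.9 CPM of Il23a in neutrophils, below both SPF libraries.

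DSS, antibiotics and the Nlrc4 label each had 1 library, so no test was made, and a pair was counted where the ratio of CPM + 5 reached 2-fold with at least 10 UMIs in both groups together. In DSS against SPF colon 13 of 55 pairs passed, 5 higher and 8 lower. The share of all genes past this fold was 2.66% in monocytes, 2.83% in macrophages, 4.0% in type 1, 4.49% in type 2 and 12.5% in mature dendritic cells, 3.77% in B cells and 15.6% in fibroblasts. Il27 was higher in monocytes, with 19.3 CPM (15.9 to 23.3) in DSS colon, against 5.90 CPM (3.82 to 8.71) in SPF colon (log2 ratio 1.16). It was also higher in macrophages, with 15.1 CPM against 2.31 CPM (1.46), and in type 2 dendritic cells, with 5.64 CPM against 0.246 CPM (1.02). The macrophage gate held different clusters in these libraries, with 61.0% of its cells in the Ly6i Ccr2 cluster and 10.6% in the Pf4 Cd163 cluster in DSS colon, against 33.7% and 34.4% in SPF replicate 1, and with 48.2% in the Pf4 Cd163 cluster in replicate 2. Within the Ly6i Ccr2 cluster Il27 was 20.2 CPM (13.1 to 29.9) in DSS colon and 3.99 CPM (1.09 to 10.2) in SPF replicate 1. Il6 was lower in 5 classes, with 80.8 CPM against 221 CPM in monocytes (-1.40), 19.0 against 55.4 CPM in macrophages (-1.33) and 22.6 against 69.1 CPM in type 2 dendritic cells (-1.43).

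The Il6 ratios depended on which SPF library served as the reference, because SPF replicate 1 had 105 CPM in monocytes and replicate 2 had 354 CPM. Without replicate 2 the log2 ratio was -0.36 in monocytes, -0.31 in macrophages, -0.42 in type 2 and 0.50 in type 1 dendritic cells, where it had been -1.69. In mature dendritic cells it was -1.28, and -0.34 without SPF replicate 1, in which 1 cell held 59 of 72 UMIs. Il12b in type 1 dendritic cells was 130.4 CPM in DSS colon, against 13.3 CPM in SPF colon (2.89), but all 126 UMIs of the DSS library lay in 1 cell of 57, and without the highest cell of each library the ratio was -0.72. Il12b in macrophages was 11.2 CPM against 32.3 CPM (-1.21, and -0.84 without the highest cells). Within the Pf4 Cd163 cluster it was 42.5 CPM in DSS colon, against 53.9 and 3.65 CPM in the SPF libraries, and within the Ly6i Ccr2 cluster 8.09 CPM, against 42.9 CPM in SPF replicate 1. The other pairs past the fold were Ebi3 in type 1 dendritic cells (10.3 CPM against 26.3 CPM), and Il23a in B cells (8 UMIs against 3) and fibroblasts (2 UMIs against 20). Without the highest cell of each library these Il23a ratios were 0.71 and -0.85, and 1 SPF fibroblast held 13 of the 20 UMIs.

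In the library labelled Nlrc4 deficient against the DSS library 14 of 54 pairs passed the fold, 10 higher and 4 lower. The share of all genes was 6.45% in monocytes, 12.6% in macrophages, 4.76% in type 1, 5.75% in type 2 and 9.61% in mature dendritic cells, 7.6% in T cells, 15.2% in fibroblasts, 50.6% in eosinophils and 6.62% over all kept cells. Il6 led the higher pairs. It was 244 CPM (238 to 250.3) in monocytes of the library labelled Nlrc4 deficient, against 80.8 CPM (73.6 to 88.6) in DSS colon (1.54), 117 against 19.0 CPM in macrophages (2.35), 70.1 against 22.6 CPM in type 2 dendritic cells (1.45) and 125 against 30.6 CPM over all kept cells (1.86). The monocyte value lay between those of the SPF libraries. The macrophage gate held different clusters, with 58.0% in the Saa3 Inhba cluster in the library labelled Nlrc4 deficient. In DSS colon 61.0% lay in the Ly6i Ccr2 cluster. Within the Ly6i Ccr2 macrophages Il6 was 68.6 CPM (40.7 to 108.4) against 18.6 CPM (11.8 to 27.9). Within the Pf4 Cd163 macrophages it was 83.8 CPM (49.7 to 132.5) against 25.5 CPM (9.36 to 55.5), with overlapping intervals. In fibroblasts Il6 was lower, with 28.6 CPM against 63.8 CPM (-1.03, and -0.76 without the highest cells).

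The monocytes also lay in different clusters, with 90.1% in the Saa3 Inhba cluster in the library labelled Nlrc4 deficient, against 6.83% in the DSS library, and the part of this in the Il6 level was not tested. Within that cluster Il6 was 254 CPM in the library labelled Nlrc4 deficient and 73.9 CPM in DSS colon, whereas within the Ly6i Ccr2 cluster it was 96.3 CPM and 87.7 CPM, with overlapping intervals. Il12a in monocytes was 8.68 CPM, from 201 UMIs, against 1.24 CPM, from 7 UMIs (1.13), and Il23a in macrophages 59.1 CPM against 15.6 CPM (1.63). Within the Ly6i Ccr2 macrophages Il23a was 45.7 CPM (23.6 to 79.9) against 17.0 CPM (10.5 to 26.0), with overlapping intervals. Il12b in type 2 dendritic cells was 41.7 CPM against 14.4 CPM (1.27). In type 1 dendritic cells it was 58.2 CPM against 130.4 CPM (-1.10), a direction that turned (3.24) without the single DSS cell. Ebi3 in eosinophils had 0 UMIs in 20 cells of the library labelled Nlrc4 deficient, against 19 UMIs in DSS colon, with an upper limit of 187 CPM, so no difference was detectable at this depth. Osm in mature dendritic cells was 10.5 CPM against 37.6 CPM (-1.46), while in T cells it was 21.7 CPM against 3.74 CPM (1.61). Il23a in T cells was 12.1 CPM against 1.07 CPM (1.49), and 0.58 on the log2 scale without the highest cells, 1 of which held 21 of 30 UMIs.

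In antibiotics against SPF colon 10 of 50 pairs passed, 9 higher and 1 lower. The share of all genes was 4.13% in macrophages, 1.18% in type 1, 0.596% in type 2 and 7.86% in mature dendritic cells, 3.31% in fibroblasts and 1.59% over all kept cells. Il12b was higher in 4 classes and over all kept cells (62.8 CPM against 15.9 CPM). It was 632 CPM (566 to 704) in mature dendritic cells of antibiotics colon, against 218 CPM (185 to 255) in SPF colon (1.51, and 0.97 without SPF replicate 2), 155 against 32.3 CPM in macrophages (2.10), 141 against 13.3 CPM in type 1 dendritic cells (2.998) and 78.4 against 33.1 CPM in type 2 dendritic cells (1.13, and 0.71 without SPF replicate 1). Single cells held 88 of the 139 UMIs in type 1 dendritic cells and 70 of the 103 in macrophages of the antibiotics library. The Pf4 Cd163 cluster, 46.6% of the macrophage gate in that library, had 1 of these 103 UMIs. Its level was 2.57 CPM (0.0652 to 14.3), against 53.9 and 3.65 CPM in the SPF libraries. The higher value of the gate thus came from its other cells. Without the highest cell of each library the ratios were 2.45 in mature, 2.80 in type 1 and 0.86 in type 2 dendritic cells and 1.56 in macrophages.

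Il6 was also higher after antibiotics, with 274 CPM (236 to 317) in macrophages of antibiotics colon, against 55.4 CPM (47.8 to 63.8) in SPF colon (2.21), 149.8 against 69.1 CPM in type 2 dendritic cells (1.06) and 87.4 against 36.1 CPM in fibroblasts (1.17). In macrophages of the Pf4 Cd163 cluster Il6 was 128.7 CPM (95.5 to 169.7) in antibiotics colon. The SPF values there were 27.5 CPM (17.8 to 40.6) in replicate 1 and 93.0 CPM (69.2 to 122.3) in replicate 2, whose interval overlapped. In monocytes it was 370.0 CPM against 221 CPM and did not pass the fold. Il27 in macrophages was 13.6 CPM, from 9 UMIs, against 2.31 CPM, from 8 UMIs (1.34). Il23a in mature dendritic cells was 55.1 CPM against 9.79 CPM (2.02), but all 29 UMIs of the antibiotics library lay in 1 cell, and the ratio without the highest cells was -1.11. Il23a in fibroblasts was lower, with 2.57 CPM against 19.5 CPM (-1.69), of which 13 of the 20 SPF UMIs lay in 1 cell.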

How the data were processed

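Single-cell libraries of CD11b+ lamina propria cells were prepared with the 10x 3' kit (version 3) from male mice, 9 libraries in 6 groups. The deposited files hold raw UMI counts per gene and cell, made by the authors with Cell Ranger 3.0.2 (STAR 2.5.1b, mm10 build per the submitters' processing notes). Each file is a filtered matrix, 1 per library. Barcodes with at least 200 genes and at most 15% mitochondrial UMIs were kept, the limits of the study's methods, and were gated by a Poisson likelihood over 114 markers. Cells that met 2 gates were left out and no doublet caller was run. Total UMIs per library lay between 13243317 and 64453601. A count of UMIs has counting error only in the intervals given, which were exact at 95%.

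UMIs were summed per library and class with at least 20 cells and a quasi-likelihood model of edgeR 4.0.16 was fitted after filterByExpr and TMM scaling, with p adjusted over all genes by Benjamini and Hochberg and called below 0.05. Class comparisons had library as a block, and GF and small intestine were set against SPF colon in 1 fit of 6 libraries. DESeq2 1.42.0 was the other tool (R 4.3.3). Comparisons with 1 library used log2 of CPM + 5, a 2-fold limit and at least 10 UMIs, with pooled SPF libraries. Thinned shares used the 28956 cells with at least 1000 UMIs and left out 2803. Clusters were made with Seurat 5.3.0 from 2000 variable genes without the cytokine genes (30 components, resolution 0.8). The scripts were tested on simulated data. Alternatives were a stricter cell filter (10% and 500 genes), named clusters, cells of 2 gates assigned, no low-count filter, no library block, a replicate block, each library left out, other pseudocounts and at least 30 UMIs. Leaving out shared barcodes and leaving out the cell with the most UMIs were chosen after seeing the data.

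The members and the lists of receptors, signal genes, controllers, targets and dissociation genes were chosen with earlier results of these data known. The text names the 7 members, up to 4 called genes of a list by the largest fold change, and the 3 genes most correlated with a member over sums of at least 50 cells. Protein sequences are not shown. Intervals and motif matches were computed in Python 3.11.15 with scipy 1.17.1 and numpy 2.4.6.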

Additional observations from a re-analysis of the deposited data

Results flagged for a closer look

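In GF against SPF colon the Il23a level lay above both SPF libraries in every GF library in monocytes and macrophages and below them in neutrophils and fibroblasts, and these differences between classes were not tested. The log2 ratio of CPM + 5, each group taken as the mean of its 2 libraries, was 1.34 in monocytes and -1.69 in neutrophils, a difference of 3.02, and 1.21 in macrophages and -1.69 in neutrophils, a difference of 2.90. Against fibroblasts, where the ratio was -2.11, the difference was 3.44 for monocytes and 3.32 for macrophages. Single cells held 51 of the 71 Il23a UMIs in monocytes of the second GF library, 15 of the 28 in macrophages of the first GF library and 13 of the 16 in fibroblasts of the first SPF library. The neutrophil values were spread over more cells, the highest single cell holding 16 of 44 UMIs in the second GF library and 24 of 68 in the second SPF library.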

How the results depend on the processing

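Of the 60 class calls (48 against the other gated cells and 12 between related classes), 46 were kept under every alternative in which they were tested, but Il12a in neutrophils and monocytes and Il27 in B cells were too low to be tested in 4, 1 and 5 alternatives. Without the library block 39 and 10 were called, by named clusters 47 and 10, without the low-count filter 54 and 16, and with any library left out between 45 and 49. Without the low-count filter, 5 pairs were called for GF and 3 for small intestine against SPF colon, and in the other alternatives none. With a replicate block no pair was called (11 and 7 at an unadjusted p below 0.05), and deviations of same-numbered libraries correlated at 0.18 to 0.74 for GF and -0.09 to 0.41 for small intestine over the classes. Each of these sets has 2 pairs and no label ties libraries by number, so the numbers were not taken to pair them. For the 1-library comparisons, the pairs past the fold numbered 20 for DSS with a pseudocount of 1 and 4 with a pseudocount of 20, 5 for the Nlrc4 label and 5 for antibiotics with a pseudocount of 20, and 9 to 15 for DSS and 9 to 14 for antibiotics with an SPF library left out. Thinned shares of cells were 12.5% for Il12b and 13.2% for Ebi3 in mature dendritic cells, 12.8% for Il23a, 0.678% for Il12a and 20.2% for Osm in neutrophils, and 14.2% for Il6 and 1.61% for Il27 in monocytes. Unthinned and taken by named cluster instead of by gate, the shares were 30.7% for Il12b, 23.4% for Il23a, 38.3% for Il6 and 42.6% for Osm. With each library left out in turn, an alternative chosen after seeing the data, the unthinned shares lay between 21.1% and 27.7% for Il12b, 1.48% and 2.03% for Il12a, 18.9% and 22.3% for Il23a, 6.08% and 11.8% for Il27, 49.9% and 53.5% for Ebi3, 27.7% and 46.98% for Il6 and 38.7% and 40.8% for Osm. In type 1 dendritic cells the DSS ratio of Il6 was 0.50 without SPF replicate 2 and -1.93 without SPF replicate 1. Without the cell with the most UMIs in each library, the Il12b ratio in type 1 dendritic cells was -0.72 for DSS and 3.24 for the Nlrc4 label, and the Il23a ratio in mature dendritic cells was -1.11 for antibiotics. The cause was not tested. DESeq2 scaling moved the median of all genes by -0.29 in eosinophils, -0.24 in monocytes, -0.15 in mature dendritic cells and -0.14 in B cells, with no called cytokine gene changing direction. Low UMI counts limit Il12a and Il27, and every class of few cells.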

Other observations

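The gate of mast cells and basophils held only 63 cells but had the highest share of cells with an Il6 UMI. Of them 48 had one (76.2%, exact 95% interval 63.8% to 86.0%), and 62.7% did after thinning to 1000 UMIs, with 972 UMIs or 6.10% of all Il6 UMIs. In the library labelled Nlrc4 deficient 27 such cells had 4580 CPM of Il6. Split by their proteases after the values were seen, 19 cells with Mcpt8, a protease known from basophils, held 684 Il6 UMIs with a median of 31 per cell, and 26 cells with more Mcpt1 and Mcpt2, proteases known from mucosal mast cells, held 91 with a median of 1.5. The other 18 cells held 197. Osm had 102 UMIs in this gate and was seen in 44.4% of its cells. Endothelial-gated cells, 100 in all, held 75 Il6 UMIs in 11 cells. No test was made of either class, since most libraries had fewer than 20 cells of it.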
